A study of Mus musculus with 48 samples.

Results

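RNA levels were examined for 34 cardiac ion channel, calcium handling and gap junction genes, of 54752 Ensembl genes in the deposited matrix. The genes were taken by name from a list that covers release and uptake of calcium by the sarcoplasmic reticulum, calcium entry and extrusion, sodium and pacemaker channels, potassium channels and connexins, and all 34 had a row. The matrix held 48 libraries from male Prox1-eGFP mice on the C57BL/6 strain, 12 each from heart lymphatic endothelial cells (LECs), diaphragm LECs, heart blood endothelial cells (BECs) and cardiomyocytes. Every mouse carried a knock-in that places eGFP under the endogenous promoter of Prox1, a lymphatic transcription factor, and every mouse had an osmotic pump for 5 to 6 weeks. The ctrl mice (n = 4) received bovine serum albumin (BSA), the angII mice (n = 5 in each population) received angiotensin II with BSA, and the angII+VEGFC mice (n = 3) received angiotensin II with VEGFCc156s, a lymphangiogenic form of VEGFC. The 4 libraries of a replicate came from 1 mouse, except that the diaphragm LECs of angII replicate 3 came from another angII mouse than its heart cells. Labelled ages ran from 8 to 16 months in ctrl and in angII and from 8 to 15 months in angII+VEGFC. The endothelial cells were sorted by flow cytometry, whereas the cardiomyocytes came from the pellet of the digested heart and were not sorted. The comparisons ask how the RNA of the contraction and conduction machinery differed after angiotensin II, without and with VEGFCc156s, and in which heart cells it lay.

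Each heartbeat begins with an action potential shaped by sodium, calcium and potassium channels. Calcium entering through the L-type channel opens the ryanodine receptor Ryr2 on the sarcoplasmic reticulum, the released calcium drives contraction, and the pump SERCA2 (Atp2a2) returns it to the store under the control of the small proteins phospholamban (Pln) and sarcolipin (Sln). Atrial and ventricular muscle use partly different sets of these genes: Sln, the acetylcholine-gated channel subunits Kcnj3 and Kcnj5 and the connexin Gja5 are known for their atrial expression in the mouse.

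Levels are given in TPM units, which scale a gene's abundance by its length and by its library's total, so that levels of different genes can be set side by side. TPM keeps no read count. The depth of each library is therefore unknown, and neither counting intervals nor detection limits are given. Fold changes are differences of log2(TPM + 1) from limma, with age as a covariate in cardiomyocytes and age and sequencing batch in endothelial cells, followed by their standard error (SE). A gene was called at an adjusted p under 0.05 (Benjamini-Hochberg over all genes tested). For treatment, genes were tested in a population where at least 3 of its 12 libraries reached 1 TPM. Between populations, the same 3 libraries could come from any population in the fit. A gene could thus enter through the population where it was high.

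The marker genes of the labelled cell types were present where the labels put them. Summed over Myh6, Tnnt2, Tnni3, Actc1, Myl2, Myl3 and Mb, cardiomyocyte markers reached 9945 to 24928 TPM in cardiomyocyte libraries, and each of the 7 was above 0 in all 12. The sums ran from 14330 to 21516 TPM in ctrl (median 16614), from 12817 to 24928 in angII (median 13192) and from 9945 to 18644 in angII+VEGFC (median 12852). The cardiomyocyte libraries were nevertheless mixed, with summed fibroblast markers of 2413 to 3497 TPM in ctrl, 3965 to 5595 in angII and 3346 to 6502 in angII+VEGFC. Summed macrophage and leukocyte markers were 148 to 178 TPM in ctrl, 230 to 427 in angII and 219 to 533 in angII+VEGFC, so that every treated library lay above every ctrl library. The part of these other cells in the values below was not tested. Atrial markers (Myl4, Myl7 and Bmp10 summed) ran from 6713 to 16956 TPM in ctrl, from 2603 to 10093 in angII and from 2915 to 6027 in angII+VEGFC. In bulk RNA, fewer cells of a type and less RNA per cell cannot be told apart. The angII library of replicate 5 stood apart from the other 4 angII libraries, with the highest atrial marker sum of its group (10093 against at most 5977 TPM) and the highest cardiomyocyte marker sum of all 12 (24928 TPM). In the lists of values, libraries stand in replicate order, so this library is the last of the 5 angII values. The angII+VEGFC library of replicate 3 also stood apart, with 19306 genes at 1 TPM or more against 13020 to 15816 in the other 11 libraries and the lowest cardiomyocyte marker sum (9945 TPM).

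In cardiomyocytes the listed genes covered more than 3 orders of magnitude. Sln had the highest mean, 920.7 TPM ± 552 (SD, n = 12), followed by Atp2a2 at 653.3 ± 418 and Pln at 410.9 ± 119. The spreads of these 3 overlapped. Casq2, the calcium-binding protein of the store, averaged 157.8 TPM, the ventricular connexin gene Gja1 131.7 and Trdn, which tethers Casq2 to the ryanodine receptor, 130.2. Ryr2 itself stood at 19.6 TPM ± 3.62 and the sodium-calcium exchanger Slc8a1 at 8.35 ± 1.71. Among potassium channel genes the order was Kcna5 (23.5 TPM), Kcnk3 (20.4), Kcnh2 (19.0), Kcnj3 (13.5), Kcnj5 (11.4), Kcnq1 (11.3), Kcnip2 (10.7), Kcnj12 (7.35), Kcnj11 (5.87) and Kcnj2 (3.03). Most of these neighbours lay within each other's SD, which was 11.6 TPM for Kcnj3 and 11.1 for Kcnk3. At the low end, Kcnd2 averaged 0.795 TPM and Hcn2 0.686. Kcnd3 (0.539), Hcn4 (0.410) and Kcnv2 (0.392 TPM) did not pass the filter on low values. The filter left 31 of the 34 genes for testing, among 15691 genes of the cardiomyocyte libraries.

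After angiotensin II alone, no gene of the list was called in cardiomyocytes, and 14 of all 15691 genes (0.0892%) were. At an unadjusted p under 0.05, 8 of the 31 tested lay lower in angII than in ctrl, against 1.85% of all genes, and 1 lay higher, against 8.0% of all genes. The 8 were Atp2a2, Hrc, Kcnj3, Kcnj5, Kcnj12, Kcnh2, Kcnk3 and Gja5, and the 1 was Kcna5. Fold changes were below 0 for 24 of the 31, with a median log2 fold change of -0.23, while the median over all genes was 0.12 and 31.7% of all genes were below 0. None of the 31 had groups that did not overlap, in either direction, against 0.574% of all genes on the lower side and 5.1% on the higher side. For Hrc, Kcnj5 and Kcnh2, angII replicate 5 was the 1 angII library within or above the ctrl range.

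In angII+VEGFC hearts, 4 of the 31 tested genes were called against ctrl and all 4 fell: Hrc, Kcnj3, Kcnj5 and Kcnk3. Over all genes, 104 (0.663%) were called, 61 higher and 43 lower. Hrc encodes the histidine-rich calcium-binding protein of the store, Kcnj3 and Kcnj5 the paired subunits of the acetylcholine-gated inward rectifier, and Kcnk3 the two-pore background potassium channel TASK-1. At an unadjusted p under 0.05, 12 lay lower (4.7% of all genes did) and 2 lay higher (8.15% of all genes did). The same 2 counts held for groups that did not overlap, with 12 lower against 4.78% of all genes and 2 higher, Kcna5 and Cacna2d1, against 9.19%. The median log2 fold change was -0.59 over the 31 and 0.11 over all genes, and 26 of the 31 were below 0, as were 38.1% of all genes. After scaling to cardiomyocyte markers these medians were -0.27 and 0.41, and 128 genes were called higher and 11 lower. Quantile normalization called 133 higher and 193 lower, and removal of mitochondrial genes 76 and 118. These calls were not stable to the loss of libraries. Leaving out any of the 4 ctrl libraries, or angII+VEGFC replicate 1 or 2, left 0 of the list called and 0 to 9 of all genes. Leaving out angII+VEGFC replicate 3 left 6 of the list and 827 of all genes, 701 higher and 126 lower, so the count over all genes moved in the same direction as that of the list.

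**Figure D1:**
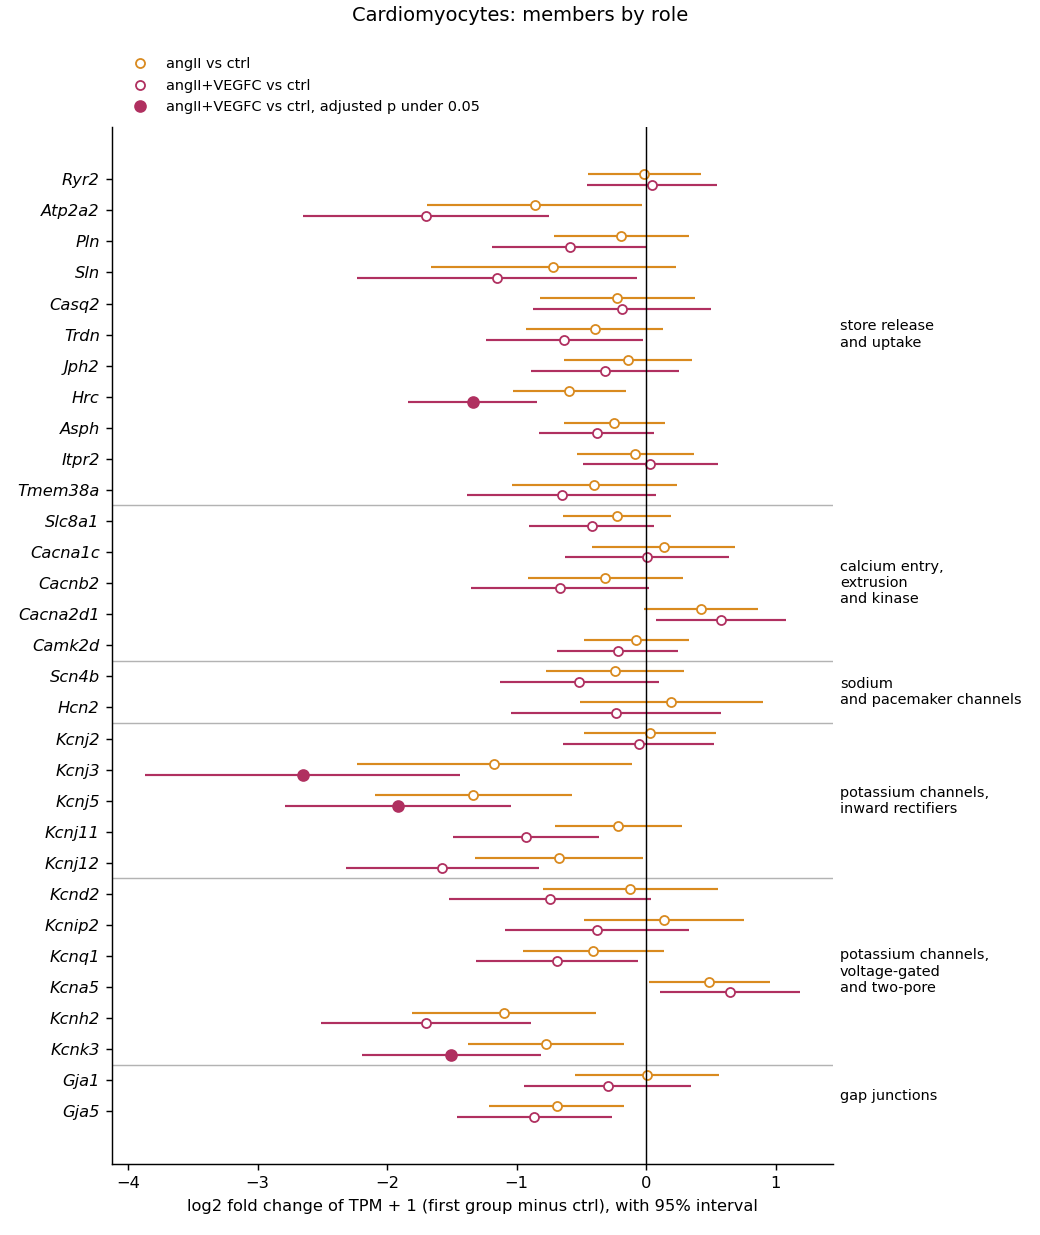
Log2 fold change of TPM + 1 in cardiomyocytes for the 31 tested genes, grouped by role on the vertical axis. Circles are limma estimates for angII against ctrl (orange) and angII+VEGFC against ctrl (red), lines are 95% intervals, and filled circles mark the 4 genes called in angII+VEGFC, at -1.34 (Hrc), -2.65 (Kcnj3), -1.92 (Kcnj5) and -1.51 (Kcnk3). Most estimates lie left of 0, and Kcna5 and Cacna2d1 lie to the right in both comparisons.

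The comparison of angII+VEGFC with angII called none of the 31 and none of all 15691 genes (0%). At an unadjusted p under 0.05 it put 5 genes of the list lower, Hrc, Kcnj11, Kcnj3, Kcnj12 and Kcnk3, against 1.56% of all genes, and 0 higher, against 0.848%. Groups did not overlap for 2 of them, Hrc and Kcnj11, both lower in angII+VEGFC (0.848% of all genes on that side), and for 0 on the higher side (0.835%). The median log2 fold change was -0.28 over the list and -0.03 over all genes. The 3 comparisons share libraries, so their counts are not independent. In the group means, 22 of the 31 genes ran from ctrl down through angII to angII+VEGFC, an order found for 16.2% of all genes tested, and 2 ran upward in the same order, against 36.3% of all genes.

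Among the 11 tested genes of calcium storage, release and uptake, 1 was called against ctrl in angII+VEGFC and none in angII. Their median log2 fold change was -0.25 in angII and -0.59 in angII+VEGFC. Hrc, which binds calcium inside the store and also contacts SERCA2 and triadin, was at 40.0, 56.1, 51.7 and 42.1 TPM in ctrl, at 29.0, 25.1, 31.1, 24.8 and 44.4 in angII, and at 14.4, 21.0 and 21.0 in angII+VEGFC. All 3 angII+VEGFC libraries lay below all of the other 9, and in angII only replicate 5 reached the ctrl range. Its log2 fold change was -1.34 in angII+VEGFC (SE 0.23, adjusted p 0.0264) and -0.59 in angII (SE 0.20, adjusted p 0.311). Across the other settings and left-out libraries the first of these ran from -1.47 to -0.99, with adjusted p from 0.00668 to 0.691.

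Atp2a2, the calcium pump of the store, was read at 1324, 855, 1432 and 477 TPM in ctrl. The angII libraries held 761, 277, 493, 254 and 991 TPM and the angII+VEGFC libraries 279, 428 and 266. The ctrl and angII+VEGFC values did not overlap, and ctrl replicate 4, at 477 TPM, lay nearest to them. The log2 fold change was -0.86 in angII (SE 0.39, adjusted p 0.489) and -1.70 in angII+VEGFC (SE 0.45, adjusted p 0.106), so neither was called. Its inhibitor Pln stood at 390, 595, 470 and 427 TPM in ctrl, at 350, 351, 374, 337 and 630 in angII, and at 240, 496 and 272 in angII+VEGFC. The Pln groups overlapped throughout, with log2 fold changes of -0.19 (SE 0.24) and -0.59 (SE 0.28).

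Sln, the second small inhibitor of the pump, was at 949, 2075, 1337 and 724 TPM in ctrl and at 976, 755, 262, 366 and 1737 in angII. In angII+VEGFC it was at 616, 404 and 848 TPM. Both treated groups overlapped ctrl, and the estimates were -0.72 (SE 0.44, adjusted p 0.642) and -1.15 (SE 0.51, adjusted p 0.350). The 3 libraries with the highest Sln, ctrl replicates 2 and 3 and angII replicate 5, were also the 3 with the highest atrial marker sum. These 3 also had the highest Hrc.

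Ryr2, the release channel, had nearly the same mean in the 3 groups: 19.3 TPM ± 2.72 (SD, n = 4) in ctrl, 20.0 ± 5.32 (n = 5) in angII and 19.2 ± 1.93 (n = 3) in angII+VEGFC. The libraries held 20.1, 22.4, 19.0 and 15.8 TPM in ctrl, 12.7, 17.3, 20.2, 23.2 and 26.5 in angII and 21.4, 17.7 and 18.6 in angII+VEGFC, and all groups overlapped. Its 95% interval in log2 units ran from -0.45 to 0.42 for angII and from -0.46 to 0.54 for angII+VEGFC. Such intervals give the changes that are compatible with the values and are not detection limits. The direction of these Ryr2 estimates depended on the settings. Around the channel, Casq2 (169, 156 and 145 TPM in the means of ctrl, angII and angII+VEGFC), Jph2, which holds the store against the surface membrane (26.2, 23.3 and 21.3), Asph, which includes the junctional protein junctin (63.7, 53.6 and 49.8), and Itpr2, the inositol trisphosphate receptor (9.58, 9.02 and 9.46), each overlapped between all groups. Trdn had means of 158, 125 and 102 TPM and Tmem38a, the potassium channel of the store membrane, 75.8, 60.6 and 47.1. For both, the angII+VEGFC libraries lay below all ctrl libraries, at adjusted p of 0.359 and 0.448.

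**Figure D2:**
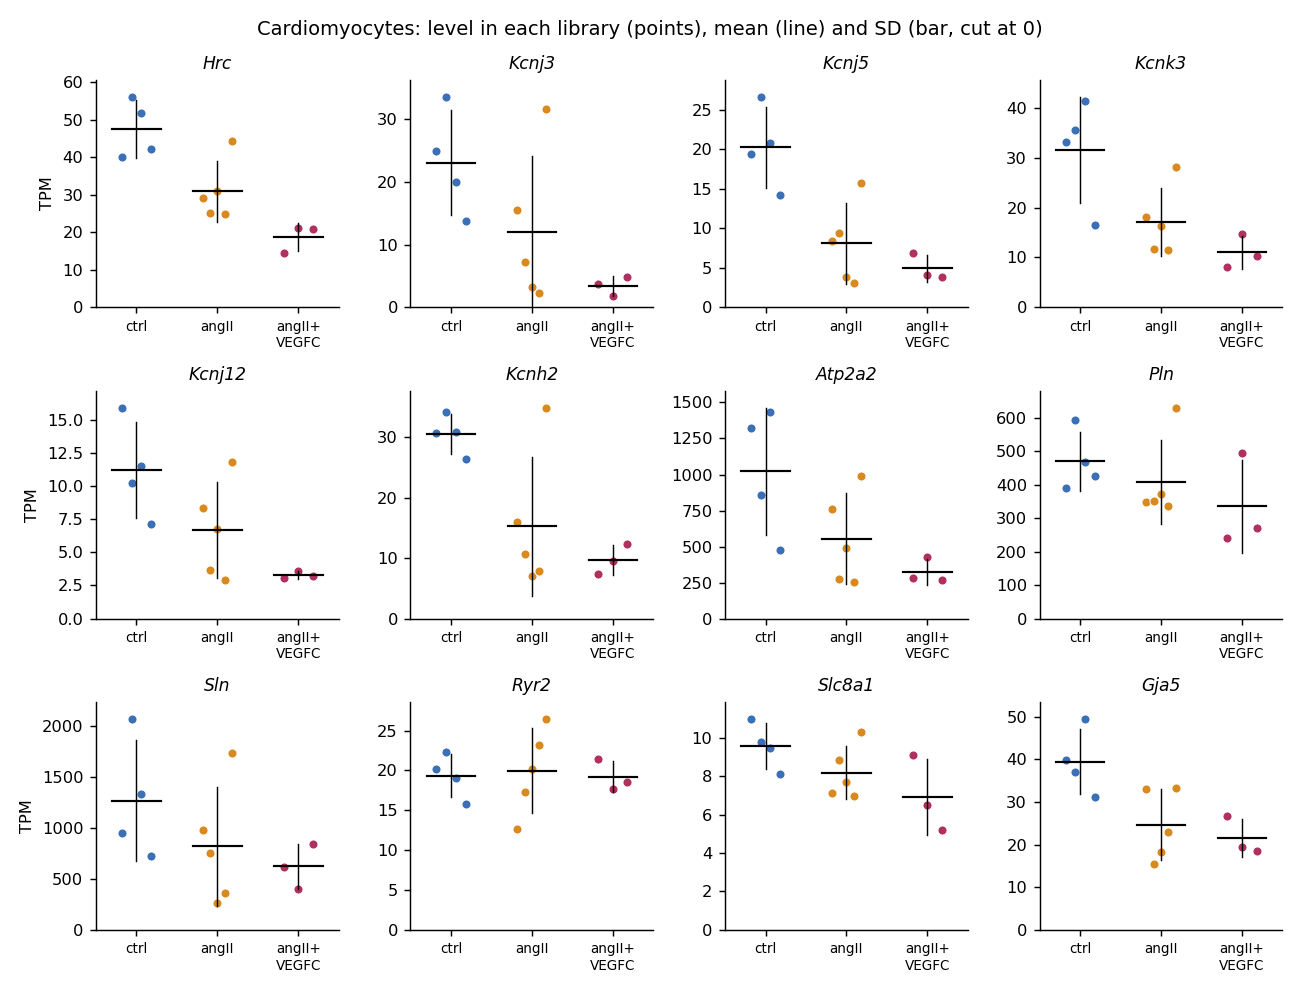
TPM in each cardiomyocyte library (points, vertical axes on separate linear scales from 0) for 12 genes, with group mean (line) and SD (bar, cut at 0) for ctrl (n = 4), angII (n = 5) and angII+VEGFC (n = 3). Hrc, Kcnj3, Kcnj5 and Kcnk3 in angII+VEGFC sit below every ctrl library, and Ryr2 lies between 12.7 and 26.5 TPM in all groups. For Hrc, Kcnj5, Kcnh2 and Pln only 1 angII library lies within or above the ctrl range, and in the other panels more than 1 does.

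A ratio of 2 genes within a library does not depend on how that library was scaled, so Pln, Sln and Slc8a1 were also taken relative to Atp2a2. The log2 ratio of Pln to Atp2a2 averaged -1.02 ± 0.79 (SD, n = 4) in ctrl, -0.28 ± 0.66 (n = 5) in angII and 0.01 ± 0.21 (n = 3) in angII+VEGFC. The difference from ctrl was 0.73 in angII (two-sided exact permutation p = 0.183) and 1.02 in angII+VEGFC (exact permutation p = 0.143). For Slc8a1 the differences from ctrl were 0.72 (exact permutation p = 0.175) and 1.06 (exact permutation p = 0.0857), and for Sln 0.12 (exact permutation p = 0.833) and 0.58 (exact permutation p = 0.429). None of the 9 ratio tests passed, with adjusted p of 0.411 or more. The smallest p such a test can give is 0.00794 for angII and 0.0286 for angII+VEGFC against ctrl, and it is 0.0179 for angII+VEGFC against angII. After adjustment over 9 tests, no single test at its smallest value could pass 0.05.

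Among genes of calcium entry and extrusion, none of the 5 tested was called, and their median log2 fold change was -0.08 in angII and -0.22 in angII+VEGFC. Slc8a1, which extrudes calcium in exchange for sodium, was at 11.0, 9.82, 9.47 and 8.11 TPM in ctrl, at 7.14, 8.86, 7.73, 6.99 and 10.3 in angII and at 9.10, 6.49 and 5.18 in angII+VEGFC. The groups overlapped and the estimates were -0.23 (SE 0.20) and -0.42 (SE 0.23). The pore subunit of the L-type channel, Cacna1c, averaged 3.13, 3.60 and 3.19 TPM in ctrl, angII and angII+VEGFC, and its beta subunit Cacnb2 8.46, 6.87 and 5.29 TPM. Camk2d, the main calmodulin-dependent kinase of heart muscle, averaged 46.3, 43.4 and 40.9 TPM. Against these, Cacna2d1, the accessory alpha-2-delta subunit, was at 3.91 to 4.83 TPM in ctrl and at 5.22 to 8.34 in angII+VEGFC. Those ranges did not overlap, with a log2 fold change of 0.58 (SE 0.24, adjusted p 0.309). The sodium channel beta subunit Scn4b averaged 2.70, 2.11 and 1.51 TPM and the pacemaker channel Hcn2 0.668, 0.820 and 0.489, with no call.

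The inward rectifiers had the lowest median of the roles, -0.67 in angII and -1.57 in angII+VEGFC over 5 tested genes, of which 2 were called in angII+VEGFC. Kcnj3 (chr2:55435970-55598145, plus strand) was at 24.9, 33.5, 20.0 and 13.7 TPM in ctrl. It was at 15.6, 7.24, 3.28, 2.35 and 31.5 TPM in angII and at 3.68, 1.76 and 4.91 in angII+VEGFC. The angII+VEGFC values lay wholly below ctrl, and the angII values spanned both ranges. Its log2 fold change was -2.65 in angII+VEGFC (SE 0.57, adjusted p 0.049991) and -1.17 in angII (SE 0.50, adjusted p 0.450). Without angII replicate 5 the latter was -1.63, at an adjusted p of 0.0774.

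Kcnj5 (chr9:32314707-32344350, minus strand) encodes the partner subunit of Kcnj3 and was at 19.4, 26.6, 20.8 and 14.2 TPM in ctrl. The angII libraries held 8.38, 9.36, 3.86, 3.10 and 15.7 TPM and the angII+VEGFC libraries 6.93, 4.06 and 3.81. Apart from angII replicate 5, every treated library lay below every ctrl library. Log2 fold changes were -1.92 in angII+VEGFC (SE 0.41, adjusted p 0.0480) and -1.33 in angII (SE 0.36, adjusted p 0.163). Over the other settings and left-out libraries, adjusted p in angII+VEGFC ran from 0.0243 to 0.871 for Kcnj3 and from 0.0237 to 0.871 for Kcnj5, and both estimates stayed below 0.

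Kcnj12, which carries part of the resting inward rectifier current, was at 15.9, 10.2, 11.5 and 7.17 TPM in ctrl, at 8.35, 3.68, 6.73, 2.94 and 11.8 in angII and at 3.04, 3.60 and 3.19 in angII+VEGFC. The latter values were close together and below all ctrl values, with a log2 fold change of -1.57 (SE 0.35) just outside the threshold at an adjusted p of 0.0546. Kcnj2, the other main subunit of that current, averaged 3.05, 3.13 and 2.85 TPM in the 3 groups and overlapped in all. Kcnj11, the pore of the ATP-sensitive channel, was at 6.03 to 9.82 TPM in ctrl, 4.24 to 9.66 in angII and 2.85 to 4.01 in angII+VEGFC. All angII+VEGFC libraries lay below all others, with a log2 fold change of -0.93 against ctrl (SE 0.26, adjusted p 0.136).

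Of the 6 tested voltage-gated and two-pore potassium channel genes, 1 was called in angII+VEGFC. Kcnk3 (chr5:30588170-30625271, plus strand) was at 33.1, 35.5, 41.2 and 16.5 TPM in ctrl, at 18.1, 11.6, 16.3, 11.4 and 28.1 in angII and at 8.10, 14.7 and 10.3 in angII+VEGFC. The angII+VEGFC libraries lay below all ctrl libraries, the nearest being ctrl replicate 4. The log2 fold change was -1.51 in angII+VEGFC (SE 0.32, adjusted p 0.049991, from 0.0183 to 0.871 over the alternatives) and -0.77 in angII (SE 0.28, adjusted p 0.355).

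Kcnh2, the channel of the rapid delayed rectifier current, was at 30.8, 34.3, 30.8 and 26.4 TPM in ctrl. In angII it was at 16.1, 10.6, 7.07, 7.81 and 34.9 TPM and in angII+VEGFC at 7.36, 9.49 and 12.3. Only angII replicate 5, above every ctrl library, joined the treated and ctrl ranges. The log2 fold change was -1.70 in angII+VEGFC (SE 0.38, adjusted p 0.0563) and -1.10 in angII (SE 0.33, adjusted p 0.222). Leaving out angII replicate 5 gave -1.44 for angII, at an adjusted p of 0.0295, and this was the 1 call of the list in that comparison over all left-out libraries. No share of all genes called in that setting stands beside it, so it is not read as a result about the list.

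Kcna5, the ultrarapid delayed rectifier, went the other way. It was at 16.3, 17.8, 16.5 and 19.1 TPM in ctrl, at 30.3, 24.7, 25.3, 32.3 and 15.5 in angII and at 31.1, 33.1 and 20.5 in angII+VEGFC. All treated libraries but angII replicate 5 lay above ctrl, and the estimates were 0.49 (SE 0.22, adjusted p 0.489) and 0.65 (SE 0.25, adjusted p 0.282). Heart BECs held 118 TPM of Kcna5, about 5 times the cardiomyocyte mean (501%), while the endothelial markers Pecam1, Cdh5, Kdr and Tie1 summed to 331 to 425 TPM in ctrl, 279 to 495 in angII and 263 to 423 in angII+VEGFC cardiomyocyte libraries. The part of endothelial RNA in the Kcna5 values was not tested. Kcnq1, of the slow delayed rectifier, averaged 14.3, 10.6 and 8.61 TPM, Kcnip2, the accessory subunit of the transient outward current, 10.9, 11.8 and 8.52, and its pore subunit Kcnd2 1.02, 0.932 and 0.271 TPM. None of these 3 was called.

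The connexins differed from each other. Gja1, whose product couples working heart muscle cells, averaged 136, 136 and 119 TPM in ctrl, angII and angII+VEGFC. Gja5, the connexin of atria, conduction system and arteries, was at 39.9, 37.1, 49.5 and 31.2 TPM in ctrl, at 33.1, 15.4, 18.2, 22.9 and 33.4 in angII and at 26.6, 19.3 and 18.5 in angII+VEGFC. The angII+VEGFC values lay below ctrl and 2 of the 5 angII values reached it. The log2 fold change of Gja5 was -0.69 in angII (SE 0.24, adjusted p 0.334) and -0.86 in angII+VEGFC (SE 0.28, adjusted p 0.190).

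The genes named above for atrial expression, Sln, Kcnj3, Kcnj5 and Gja5, had estimates below 0 in both treated groups. The atrial marker sum was also lower in most treated cardiomyocyte libraries. In ctrl the sum was 7399, 16956, 13890 and 6713 TPM, in angII 5562, 5977, 2603, 2774 and 10093, and in angII+VEGFC 4894, 2915 and 6027. All 3 angII+VEGFC libraries and all angII libraries except replicate 5 lay below all ctrl libraries. With the log2 atrial sum added as a covariate, a setting chosen after seeing the data, 0 genes of the list and 0 of all genes were called against ctrl in either treated group. The median log2 fold change of the list became -0.03 in angII and -0.22 in angII+VEGFC. The estimates of Sln turned to 0.47 and 0.32 and that of Kcnj3 in angII to 0.02. Kcnj3 in angII+VEGFC became -1.18, Kcnj5 -0.95, Kcnk3 -1.13 and Hrc -1.06. The atrial sum itself differed between the groups, so this covariate overlaps with treatment, and the loss of calls cannot tell them apart. What part of the differences lies in the share of atrial cells was not tested.

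**Figure D3:**
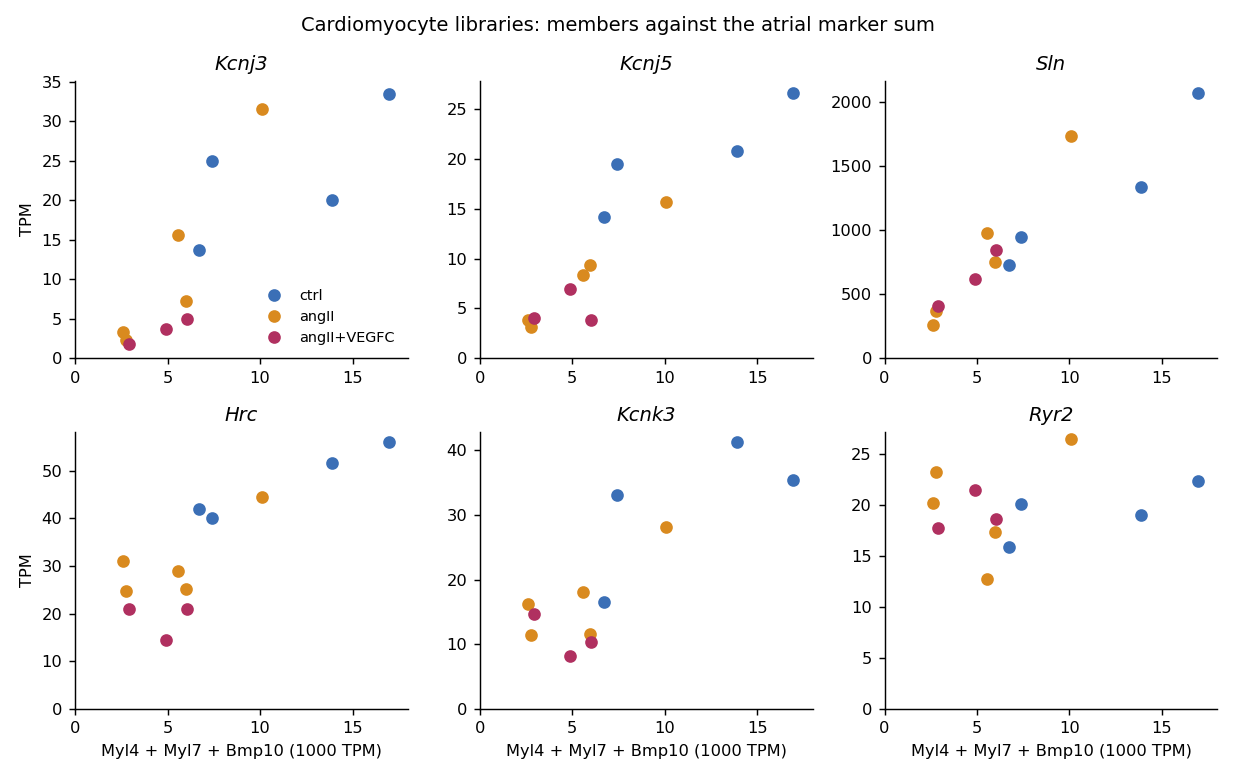
TPM of 6 genes (vertical axes, linear from 0) against the summed level of Myl4, Myl7 and Bmp10 (horizontal axis, in units of 1000 TPM) in the 12 cardiomyocyte libraries, coloured by group. Sln, Kcnj3, Kcnj5, Hrc and Kcnk3 are all high where the atrial sum is high, with angII replicate 5 at 10093 TPM among the ctrl libraries. Ryr2 lies between 12.7 and 26.5 TPM at every atrial level.

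Of the called genes, Hrc, Kcnj3 and Kcnj5 have an entry in the RefSeq promoter table (GRCm38.p6), as do 26 of the 34. Their 250 bases before the annotated start are printed 5′ to 3′ on the strand of the gene. They were chosen by the calls in angII+VEGFC cardiomyocyte libraries, which were not stable to the loss of libraries. Whether these genes share a regulator was not tested. Capitals mark matches to 5 motifs, each searched on both strands. For GATA factors the letters were AGATAA. The form searched for MEF2 was CTANNNNTAG and the one for NKX2-5 was CAAGTG. An E-box was taken as CAGCTG, which reads the same on both strands. The TATA box was searched as TATAAA.
Hrc, chr7:45335019-45335268, plus strand: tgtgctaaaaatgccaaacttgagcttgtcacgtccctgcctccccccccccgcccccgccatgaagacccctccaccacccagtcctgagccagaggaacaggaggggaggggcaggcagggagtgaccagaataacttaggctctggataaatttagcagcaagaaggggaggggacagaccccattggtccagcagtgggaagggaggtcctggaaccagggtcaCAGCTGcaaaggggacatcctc
Kcnj3, chr2:55435720-55435969, plus strand: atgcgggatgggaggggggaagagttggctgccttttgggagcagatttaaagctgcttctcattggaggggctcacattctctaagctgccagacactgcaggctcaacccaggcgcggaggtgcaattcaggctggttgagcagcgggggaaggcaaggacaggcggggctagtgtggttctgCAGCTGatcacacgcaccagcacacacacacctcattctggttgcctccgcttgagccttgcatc
Kcnj5, chr9:32344345-32344594, minus strand: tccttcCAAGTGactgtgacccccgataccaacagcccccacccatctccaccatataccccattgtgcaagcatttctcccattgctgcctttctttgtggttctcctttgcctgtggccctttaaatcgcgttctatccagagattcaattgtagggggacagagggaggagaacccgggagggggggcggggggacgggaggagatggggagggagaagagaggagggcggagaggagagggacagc

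Hrc and Kcnj3 each hold 1 CAGCTG, beginning 22 and 65 bases before the start, and Kcnj5 holds 1 CAAGTG, beginning 244 bases before it. CAGCTG occurs in 13.0% of all 32851 promoters of this length and in 6 of the 26 on the list, and CAAGTG in 11.6% and in 2 of 26. AGATAA is in 9.99% of all and in 3 of 26 (Gja1, Pln and Slc8a1), TATAAA in 12.4% and in 1 of 26 (Pln), and CTANNNNTAG in 3.2% and in 0 of 26. No motif was shared by the 3 printed sequences. A match is a run of letters only, and no factor binding was measured.

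Genes that work beside the list were taken as 5 further lists, of which 94 members were tested in cardiomyocytes. In angII none was called (0.0892% of all genes were). In angII+VEGFC 2 were (0.663% of all genes were), both among 29 tested genes of other channels and pumps: Cacna1h, the T-type calcium channel, fell from 6.96 to 1.90 TPM (log2 fold change -1.47, SE 0.29, adjusted p 0.0402), and Cacnb3, a calcium channel beta subunit, rose from 2.72 to 7.33 TPM (1.15, SE 0.23, adjusted p 0.0386). None was called among 17 partners of store and release, 25 kinases, phosphatases and receptors of calcium signalling, 16 partners at the intercalated disc or 7 genes of mitochondrial calcium uptake. The 2 members lowest in p for angII stand here for each of those lists, all uncalled. Fkbp1a, which binds ryanodine receptors, averaged 239, 319 and 385 TPM in ctrl, angII and angII+VEGFC, and sorcin (Sri) 130, 166 and 179 TPM. Adra1b, the alpha-1B adrenergic receptor, averaged 9.17, 3.97 and 3.08 TPM, at an adjusted p of 0.143 in angII and 0.0514 in angII+VEGFC, and the phosphatase inhibitor Ppp1r1a 2.74, 1.85 and 1.42 TPM. Caveolin 3 (Cav3) averaged 24.8, 33.3 and 37.4 TPM, the vascular connexin Gja4 47.7, 58.0 and 64.0, and the mitochondrial uniporter genes Mcub 9.45, 13.9 and 14.5 and Micu2 27.9, 35.1 and 33.4 TPM. In angII+VEGFC the median log2 fold change was 0.13 for the store and release partners, -0.10 for the kinases and receptors, -0.03 for the other channels and pumps, -0.26 at the intercalated disc and 0.21 for mitochondrial uptake, beside 0.11 for all genes.

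Across cell populations, 29 of 31 tested genes were called between cardiomyocytes and heart BECs, where 74.8% of all genes were. Of the 29, 24 were higher in cardiomyocytes and 5 in BECs, whereas over all genes 2504 were called higher in cardiomyocytes and 14870 in BECs. The sequencing batch cannot be told apart from the population in this comparison, since cardiomyocytes were sequenced apart from all endothelial libraries. Mitochondrial genes held 15.9% to 31.0% of TPM in cardiomyocyte libraries and 2.70% to 4.24% in heart BECs. The fit between populations does not adjust for this share, and its part in the differences, small ones included, was not tested. The largest differences toward cardiomyocytes were Sln at 7.67 log2 units (SE 0.27), Trdn at 5.04 (SE 0.17), Pln at 4.80 (SE 0.13) and Hrc at 4.51 (SE 0.13), each higher in 12 of 12 mice. In the other direction lay Itpr2 at -2.99 (SE 0.10), Kcna5 at -2.24 (SE 0.14), Gja1 at -2.02 (SE 0.14), Kcnj2 at -0.96 (SE 0.14) and Camk2d at -0.52 (SE 0.09), each higher in BECs in all 12 mice. Kcnq1 (11.3 against 11.0 TPM) and Gja5 (28.8 against 25.4 TPM) were not called. Hrc reached 1 TPM in 0 of the 12 heart BEC libraries and entered this comparison through its cardiomyocyte level. Scn4b, Kcnj3, Kcnj11, Kcnj12, Kcnd2, Kcnip2, Kcnh2, Kcnk3 and Hcn2 also fell short of 3 heart BEC libraries at 1 TPM. They too entered through their cardiomyocyte level, and all were called higher in cardiomyocytes. The filter therefore sets part of the split between the 24 and the 5.

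**Figure D4:**
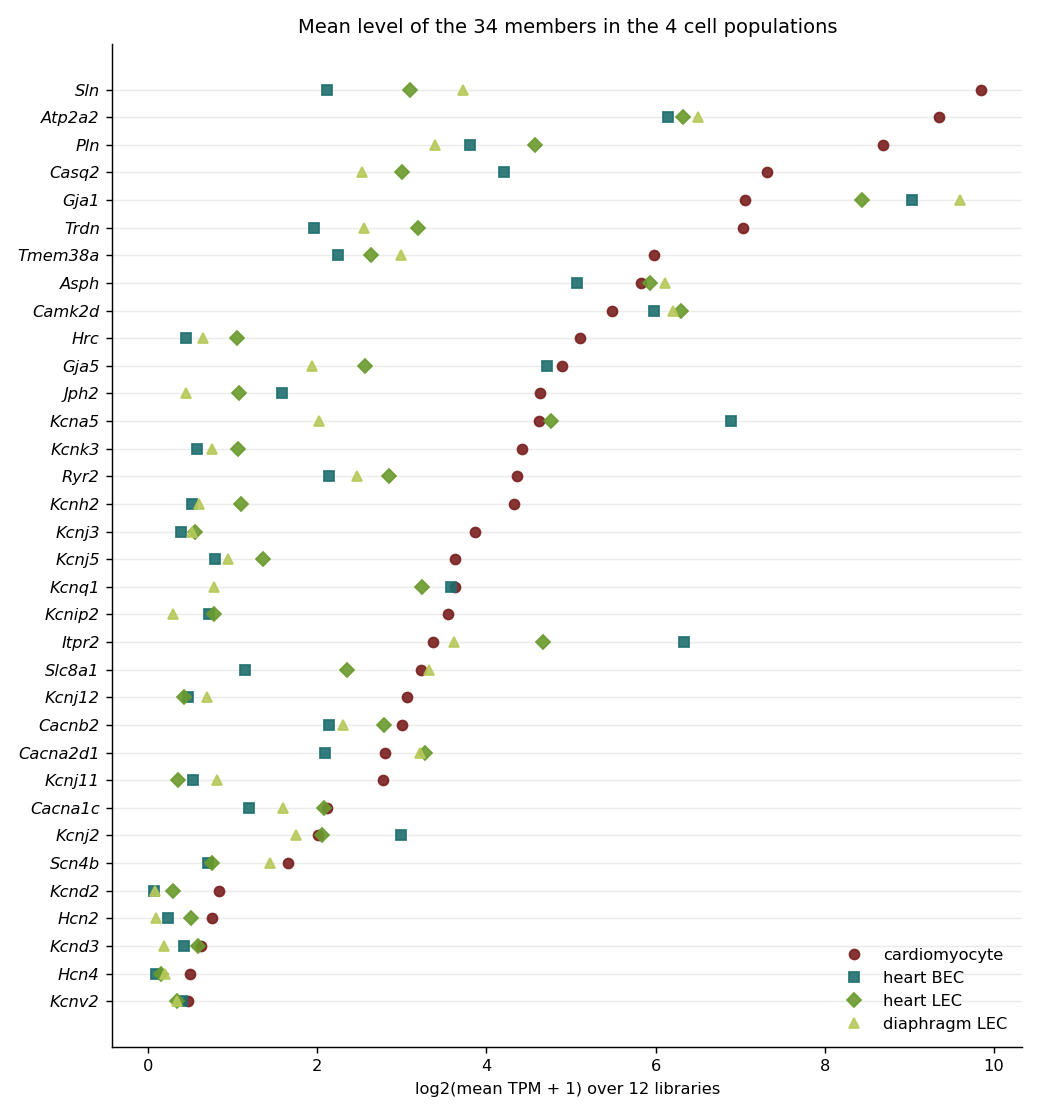
Mean level of each of the 34 genes as log2(mean TPM + 1) over the 12 libraries of each population (horizontal axis), ordered by the cardiomyocyte mean. Circles are cardiomyocytes, squares heart BECs, diamonds heart LECs and triangles diaphragm LECs. Sln, Pln, Casq2, Trdn and Hrc lie far to the right in cardiomyocytes, while Asph, Camk2d, Cacna2d1, Slc8a1, Itpr2, Kcnj2, Kcna5 and Gja1 have their highest mean in an endothelial population.

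RNA of the cardiomyocyte markers was present at a low level in the endothelial libraries. The 7 cardiomyocyte markers summed to a mean of 516 TPM in heart LECs (3.24% of the cardiomyocyte mean), 283 in heart BECs (1.78%) and 151 in diaphragm LECs (0.948%). Sln stood at 0.819% of its cardiomyocyte level in heart LECs and Hrc at 3.20%, close to or below the share of the markers, and Pln was at 5.54%. Atp2a2 (12.1%), Asph (108%), Camk2d (179%), Itpr2 (262%), Gja1 (264%) and Kcna5 (111%) stood above it. Markers of skeletal muscle (Tnnt3, Mylpf, Myh1, Myh2 and Myh4) were also read in diaphragm LECs. They summed to 15.1 to 71.5 TPM in ctrl, 11.0 to 48.6 in angII and 15.9 to 19.6 in angII+VEGFC. Levels of Pln, Sln, Casq2, Trdn and Hrc in endothelial libraries are read with these values beside them. The part of cardiomyocyte or skeletal muscle RNA in them was not tested.

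Within endothelium, 12 of 29 tested genes were called between heart LECs and heart BECs, against 17.6% of all genes. Higher in LECs were Asph (60.2 against 32.6 TPM), Camk2d (78.1 against 62.1), Slc8a1 (4.10 against 1.22), Trdn and Cacna2d1. Higher in BECs were Itpr2 (80.0 against 24.4 TPM), Kcna5 (118 against 26.2), Gja5 (25.4 against 4.89), Gja1 (522 against 347), Kcnj2 (6.92 against 3.17), Casq2 and Jph2. Atp2a2, at 79.1 TPM in heart LECs, 70.0 in heart BECs and 89.9 in diaphragm LECs, was not called between heart LECs and either of the other populations. Heart BECs and diaphragm LECs were not compared by a test. The differences were largest for Gja5, at -2.59 log2 units (SE 0.32), and Kcna5, at -2.18 (SE 0.30).

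Heart and diaphragm LECs differed for 6 of 29 genes, against 4.56% of all genes. Kcna5 was at 26.2 TPM in the heart and 3.06 in the diaphragm (log2 difference 3.15, SE 0.30, higher in the heart in 11 of 11 mice with both), and Kcnq1 at 8.47 and 0.719 TPM (2.39, SE 0.31, 10 of 11 mice). Itpr2 (24.4 and 11.3 TPM) and Pln (22.8 and 9.54) were also higher in the heart. Gja1 was higher in the diaphragm, at 775 TPM against 347 in the heart (-1.18, SE 0.11, 11 of 11 mice), and so was Slc8a1, at 9.00 against 4.10 (-0.86, SE 0.24). Kcnq1 reached 1 TPM in 2 of 12 diaphragm LEC libraries and entered this comparison through its level in the heart.

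Treatment called no gene of the list in any endothelial population. For angII against ctrl in heart LECs, 7 of all genes (0.0261%) were called, and in the other 8 endothelial comparisons none (0%). At an unadjusted p under 0.05, limma gave 7, 1 and 5 of 26 tested genes in heart LECs for angII against ctrl, angII+VEGFC against ctrl and angII+VEGFC against angII, beside 10.9%, 4.94% and 10.8% of all genes. The same counts were 2, 1 and 3 of 22 in diaphragm LECs (15.3%, 1.32% and 8.78% of all genes) and 7, 3 and 1 of 21 in heart BECs (5.4%, 5.51% and 2.59%). The share of all genes whose groups did not overlap was computed in cardiomyocytes only, so none stands beside the endothelial cases below.

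Kcna5 in heart BECs was at 55.1, 91.1, 77.3 and 86.7 TPM in ctrl, at 107, 192, 113, 139 and 105 in angII and at 103, 148 and 198 in angII+VEGFC. Every treated library lay above every ctrl library. Log2 fold changes were 0.81 in both comparisons with ctrl (SE 0.20 and 0.23), at adjusted p of 0.671 and 0.798. Within sequencing batch 1 the differences were 0.72 and 1.17, the latter from 1 angII+VEGFC library, and within batch 2 they were 0.87 and 0.68. Endothelial markers in heart BECs summed to 1717 to 2562 TPM in ctrl, 2273 to 3075 in angII and 2617 to 3015 in angII+VEGFC. The ctrl library lowest in Kcna5, replicate 1, also had the lowest endothelial sum and the highest fibroblast sum. Fibroblast markers summed to 554 to 4048 TPM in ctrl, 466 to 2539 in angII and 548 to 2711 in angII+VEGFC. Smooth muscle and pericyte markers (Acta2, Myh11, Tagln, Rgs5 and Pdgfrb) summed to 264 to 327 TPM in ctrl, 119 to 240 in angII and 207 to 367 in angII+VEGFC. The part of these marker levels in the heart BEC values was not tested. In heart LECs, Kcna5 averaged 17.0 TPM ± 3.61 (SD, n = 4) in ctrl, 33.8 ± 12.7 (n = 5) in angII and 26.1 ± 5.38 (n = 3) in angII+VEGFC, with adjusted p of 0.309 and 0.915.

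Kcnq1 in heart BECs was at 7.43, 7.16, 7.73 and 9.60 TPM in ctrl, at 12.6, 11.0, 14.8, 9.45 and 11.0 in angII and at 10.7, 18.9 and 11.4 in angII+VEGFC. Only 1 angII library, replicate 4, fell within the ctrl range. The log2 fold changes were 0.47 (SE 0.19, adjusted p 0.898) and 0.72 (SE 0.23, adjusted p 0.822). Within batch 1 the Kcnq1 differences were 0.68 and 1.22, the latter again from 1 angII+VEGFC library, and within batch 2 0.27 and 0.37. Gja1 and Itpr2 overlapped between the groups in BECs: Gja1 averaged 471, 543 and 556 TPM in ctrl, angII and angII+VEGFC, and Itpr2 85.2, 76.7 and 78.7 TPM.

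Gja5 in heart LECs had the smallest p of the list in endothelium. It was at 0.267, 0.0708, 0.106 and 4.10 TPM in ctrl, at 12.5, 8.87, 6.97, 6.09 and 8.67 in angII and at 3.72, 3.07 and 4.28 in angII+VEGFC. All angII libraries lay above all ctrl and all angII+VEGFC libraries, and ctrl replicate 4 stood with angII+VEGFC. The log2 fold change in angII was 2.5 (SE 0.56, adjusted p 0.157), and it was 3.10 within batch 1 and 1.84 within batch 2. Slc8a1 in heart LECs was at 1.51, 3.14, 1.97 and 1.16 TPM in ctrl and at 5.82, 4.66, 10.4, 3.21 and 6.63 in angII, again without overlap, with a log2 fold change of 1.22 (SE 0.50, adjusted p 0.396) and differences of 1.62 within batch 1 and 0.71 within batch 2. The summed cardiomyocyte markers were 208 to 515 TPM in these ctrl libraries, 225 to 1387 in angII and 225 to 415 in angII+VEGFC. Atrial markers summed to 12.9 to 102 TPM in ctrl, with the 102 in replicate 4 and at most 17.3 in the others, to 31.0 to 176 in angII and to 5.10 to 69.9 in angII+VEGFC. Endothelial markers summed to 883 to 1406, 1322 to 1751 and 1243 to 1539 TPM in the 3 groups, and lymphatic markers to 21175 to 29766, 16181 to 23270 and 17242 to 24148. The part of these marker levels in the values was not tested.

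Pln, Sln and Casq2 were read in the endothelial libraries beside the same marker sums. In heart LECs Pln averaged 12.2, 37.2 and 12.7 TPM in ctrl, angII and angII+VEGFC (1.40 for angII against ctrl, SE 0.39, adjusted p 0.236). Sln averaged 2.33, 13.8 and 4.12 TPM in the same libraries and Casq2 4.77, 11.4 and 2.78. In diaphragm LECs Pln was at 20.2, 8.54, 46.0, 7.49 and 6.14 TPM in angII and at 1.24, 0.681 and 1.83 in angII+VEGFC (-3.04, SE 0.71, adjusted p 0.567), with differences of -3.52 within batch 1, from 1 angII+VEGFC library, and -1.84 within batch 2, while the cardiomyocyte markers summed to 28.4 to 529 TPM in the former and 7.43 to 32.4 in the latter. Skeletal muscle markers in these diaphragm libraries summed to 11.0 to 48.6 TPM in angII and 15.9 to 19.6 in angII+VEGFC. Heart BECs had Pln at 15.8, 9.54 and 15.1 TPM in the means of ctrl, angII and angII+VEGFC, with cardiomyocyte marker sums of 228 to 522, 180 to 266 and 252 to 293 TPM. There, Sln averaged 1.44, 4.86 and 3.37 TPM (1.25 for angII against ctrl, SE 0.32, adjusted p 0.694) and Casq2 22.8, 13.1 and 17.6, so that Pln and Casq2 were lower in angII and Sln was higher, none of them called.

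**Figure D5:**
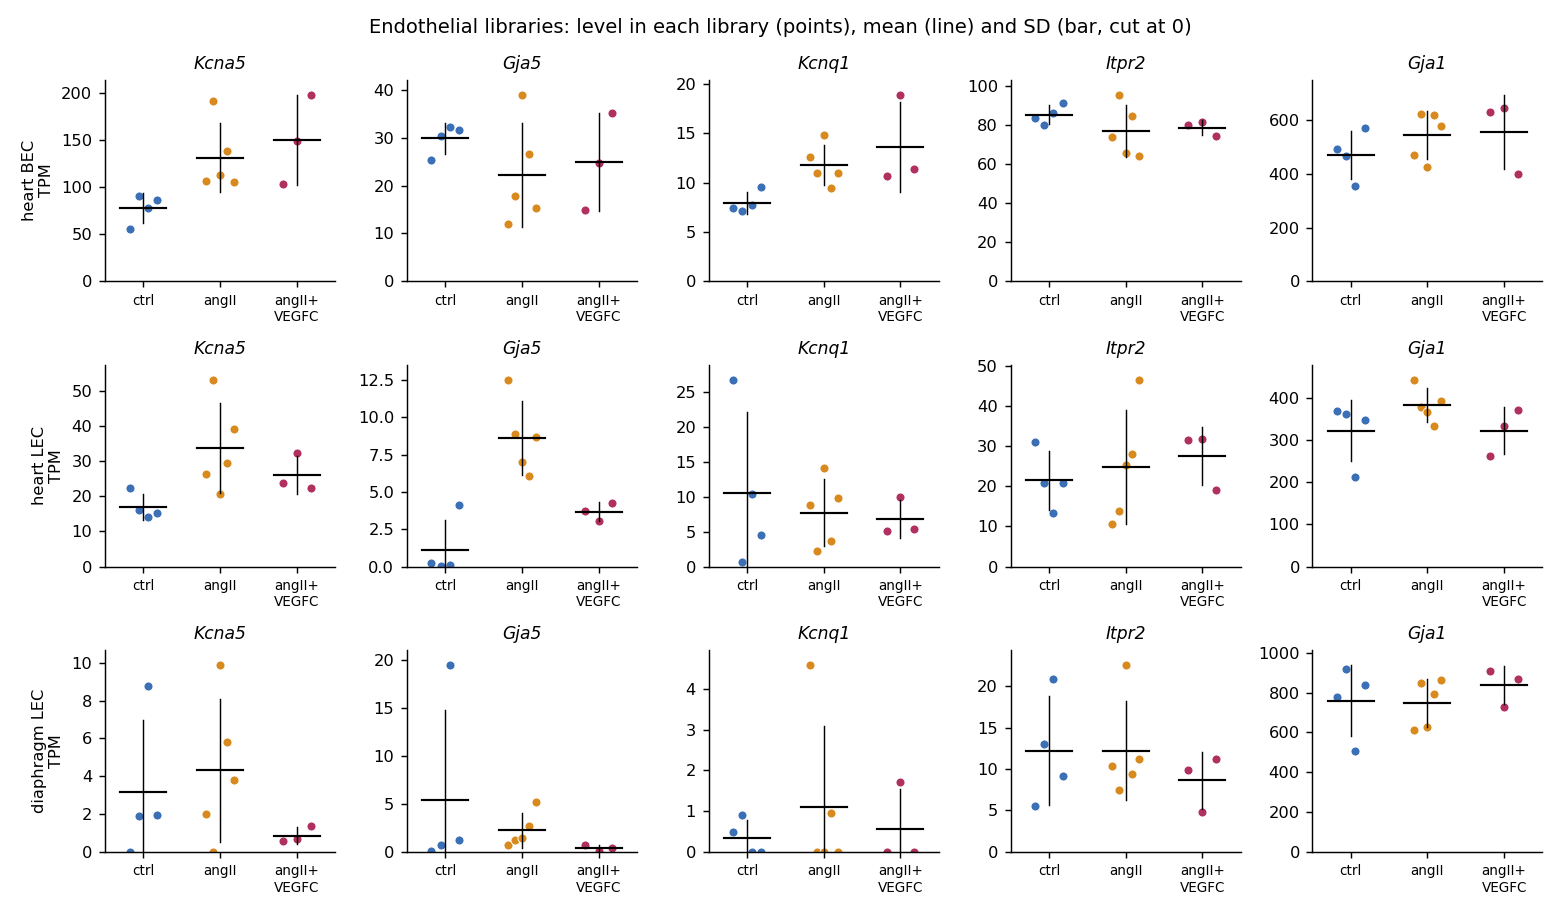
TPM in each endothelial library (points, vertical axes linear from 0 and separate for each panel) of Kcna5, Gja5, Kcnq1, Itpr2 and Gja1 in heart BECs, heart LECs and diaphragm LECs, with group mean (line) and SD (bar, cut at 0). Kcna5 in heart BECs lies at 55.1 to 91.1 TPM in ctrl and at 103 to 198 in the treated groups, and Gja5 in heart LECs lies at 6.09 TPM or more in every angII library and at 4.28 or less in all others.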

How the data were processed

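RNA-seq was performed on 48 libraries made with an ultra-low-input full-length cDNA kit and Nextera XT. Per the submitters' processing notes, the authors used STAR 2.5.3a, Salmon 0.12.0 and the mouse genome GRCm38, and deposited 1 matrix of TPM (length- and library-scaled transcript abundance from Salmon, given per Ensembl gene), with no read counts. Depth per library is unknown, so precision rests on the spread between libraries. Symbols were matched for 54723 of 54752 genes. Each population was fitted with limma-trend (limma 3.58.1, R 4.3.3) on log2(TPM + 1), which understates the change of low genes, once genes that reached 1 TPM in fewer than 3 libraries had been dropped. Group and age, and sequencing batch in endothelial cells, were model terms, with Benjamini-Hochberg adjustment over all genes tested and a threshold of 0.05. The labels' ages in months were used, although the study's methods give them in weeks. Cell populations were compared as averages over the 3 treatments, with the mouse as a replicate block as an alternative. Each mouse received 1 treatment, so the block applies between populations of the same mouse, and its consensus correlation was 0.019 for cardiomyocytes against heart BECs and 0.13 for heart LECs against heart BECs. Ratios were tested by two-sided exact permutation (Python 3.11.15), and the model was tested on simulated data.

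Libraries were grouped by their labels, and each came from its own mouse within a population. Member and partner lists, marker lists and tests were chosen with earlier results of these data known. Library values are given for genes with an adjusted p under 0.05 in cardiomyocytes, the 6 with the smallest p in each comparison with ctrl, and Ryr2, Atp2a2, Pln, Sln and Slc8a1. In endothelium, genes at a mean of 5 TPM or more in a population were eligible. Kcna5 in cardiomyocytes and the genes given by group means or ranges were described after their values were seen. Of each partner list, genes called in cardiomyocytes are named, or else the 2 with the smallest p in angII. Alternatives were the pseudocount, the filter, the covariates, 1 surrogate variable, quantile normalization, removal of mitochondrial genes, fits of the 2 groups compared, each batch alone and each library left out. A pair of others, an atrial marker covariate and scaling to cardiomyocyte markers, were chosen after seeing the data. Promoter sequences are those of RefSeq on GRCm38.p6, and gene positions are from GENCODE M21.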

Additional observations from a re-analysis of the deposited data

Results flagged for a closer look

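Outlying libraries were looked for in 130 groups of 4 or 5 libraries, and 9 were found by Dixon's criterion, which chance alone meets in about 1 of 20 groups. In cardiomyocytes, angII replicate 5 had 630 TPM of Pln against at most 374 in the other 4 angII libraries, and it also had the highest atrial marker sum of its group. In heart LECs, ctrl replicate 4 had 4.10 TPM of Gja5 against at most 0.267 in the other ctrl libraries and 8.98 TPM of Sln against at most 0.344, and ctrl replicate 3 had 213 TPM of Gja1 against at least 348. In diaphragm LECs, angII replicate 3 stood apart for Casq2 (32.1 TPM, next 5.56), Itpr2 (22.6 TPM, next 11.3) and Tmem38a (31.6 TPM, next 6.52), and ctrl replicate 3 for Gja5 (19.5 TPM, next 1.19). In heart BECs, ctrl replicate 3 had 4.36 TPM of Tmem38a against at most 2.57.

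Pln went opposite ways between angII+VEGFC and angII in 2 populations. Every angII+VEGFC library lay above every angII library in heart BECs (log2 fold change 0.66) and below every angII library in diaphragm LECs (-3.04). This was the only such pair found when all tested genes of the list were searched over all comparisons and populations. The share of all genes with such a pair was not computed, and the difference between the populations was not tested.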

How the results depend on the processing

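The 4 cardiomyocyte calls for angII+VEGFC against ctrl depended on the settings. The number called of the list, and of all genes beside 104, was 1 and 91 with a pseudocount of 0.1, 0 and 0 without the filter, 2 and 109 without covariates, 7 and 524 with 1 surrogate variable, 8 and 326 with quantile normalization, 6 and 194 without mitochondrial genes, 2 and 14 in a fit of the 2 groups only, 2 and 139 after scaling to cardiomyocyte markers, and 0 and 0 with the atrial covariate, where the median over the list was -0.22. Leaving out 1 library gave 0 to 6 of the list and 0 to 827 of all genes for this comparison, and of the list 0 to 1 for angII against ctrl and 0 to 0 for angII+VEGFC against angII. For those other comparisons no count over all genes with a library left out is given. With ctrl libraries only, heart LECs and heart BECs differed for 7 genes of the list in place of 12, and heart and diaphragm LECs for 3 in place of 6. No count over all genes stands beside these. The mouse as replicate block kept the counts of the list at 29, 12 and 6. Over all genes the block moved the counts from 17374 to 17441, from 5760 to 6564 and from 1492 to 1943. No paired analysis was possible between treatments because no mouse received more than 1.

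Ryr2 turned in direction in several settings. For angII against ctrl it was 0.015 without covariates, 0.11 with the atrial covariate and 0.11 after scaling to cardiomyocyte markers, with -0.17 to 0.19 over left-out libraries. For angII+VEGFC against ctrl it was -0.0016 without covariates, -0.038 with quantile normalization, -0.056 without mitochondrial genes and -0.025 in the fit of 2 groups, with -0.064 to 0.20 over left-out libraries. For angII+VEGFC against angII it was -0.016 without covariates and -0.21 to 0.16 over left-out libraries. The atrial covariate turned Kcnj3 (0.021) and Sln (0.47) in angII and Sln (0.32) in angII+VEGFC. Scaling to cardiomyocyte markers turned Gja5 (0.049) and Slc8a1 (0.0094) in angII+VEGFC against angII, where Gja5 ran from -0.49 to 0.085 over left-out libraries. Gja1 in heart LECs was -0.00057 within batch 2 for angII against ctrl, and the ratio of Sln to Atp2a2 ran from -0.15 to 0.46 for angII against ctrl over left-out libraries. The cause of these changes was not tested. Of 288 fold changes with a library left out, 254 kept their direction and side of the threshold. Under other settings 331 of 384 were unchanged. Those 384 include within-batch differences in endothelium, which have no p-value and were judged by direction and size. Of these, 11 kept their direction but moved in size.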
